A study of Mus musculus with 16 samples.

Results

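The maturation of wild-type erythroblasts from stage S1 to stage S3 was followed in 8 of the 16 RNA-seq libraries of the series. They were chosen by genotype and stage alone, as the S1 and the S3 library of each of 4 wild-type embryos. The cells were sorted from mouse foetal livers at E13.5 (embryonic day) by 2 surface proteins, Ter119, which erythroid cells gain as they mature, and CD71, the transferrin receptor. S1 is the earlier gate, and the study calls S3 cells basophilic erythroblasts. The wild-type embryos carry no edited allele and come from a line with a deleted *Nprl3* promoter that was bred onto the background written as CB57BL/6 J. The remaining libraries come from 2 heterozygous (Het) and 2 homozygous knockout (KO) embryos of that line and enter only where stated. Embryos 1 and 5 are labelled female and embryos 0 and 8 male, and the study assigned sex from reads of Y-linked genes. No litter is given for an embryo. The source field of the labels names an embryonic stem cell line, while the sample titles and the protocol give sorted foetal liver cells, whose markers are described first.

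A red cell is made by a short series of divisions during which a progenitor driven by the receptor kinase Kit and the factors Gata2, Myb and Myc comes under the control of Gata1, Klf1 and erythropoietin. Dividing erythroblasts fill with haemoglobin, for which haem synthesis in the mitochondria, iron import and globin synthesis have to rise together. At the same time they build a spectrin-based membrane skeleton, condense the nucleus and later expel it, and clear their organelles.

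Between 23331156 and 32131347 read pairs were counted per S1 library and between 20666044 and 37609502 per S3 library. Values below are counts normalized by the trimmed mean of M values (TMM), in the order of embryos 0, 1, 5 and 8 wherever 4 values are listed. The 10 erythroid markers summed to 241027, 73945, 97723 and 248698 at S1 and to 4171954, 4184440.0, 4516397 and 4656668 at S3, so that erythroid RNA was present in both gates and no S1 library reached an S3 library. The S1 libraries differed by embryo. Those of embryos 0 and 8 held more globin and other late erythroid RNA than those of embryos 1 and 5, which held more RNA of granulocyte precursors. The 11 neutrophil markers summed to 6186, 40490.0, 34506 and 3790.5 at S1 and to 149.5, 103, 35.1 and 82.8 at S3, where *Ngp*, *Ly6g* and *Cebpe* were at 0 in all 4 libraries. The 5 mast cell markers summed to 271, 1575, 1284 and 263 at S1 and to 7.94, 72.2, 0 and 2.12 at S3, with *Mcpt4* and *Tpsb2* at 0 in all 8 libraries. Hepatoblast markers, 14 genes led by *Afp* and *Alb*, summed to 9749, 1699, 2173 and 9293 at S1 and to 25862, 7717, 6017 and 15567 at S3, with both male embryos above both female embryos at each stage. Macrophage markers, 15 genes, summed to 1670.4, 1683, 1561 and 962 at S1 and 2578, 2521, 3066 and 1403 at S3, and 6 endothelial markers to between 163 and 848 in the 8 libraries, with the macrophage gene *Vsig4* at 0 in all. The 10 megakaryocyte markers summed to between 1090.4 and 3233. Sex therefore runs together with the make-up of the S1 libraries, and with 2 embryos of each sex the 2 cannot be told apart. In bulk samples, fewer cells of a type and less RNA per cell cannot be told apart either.

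**Figure D1:**
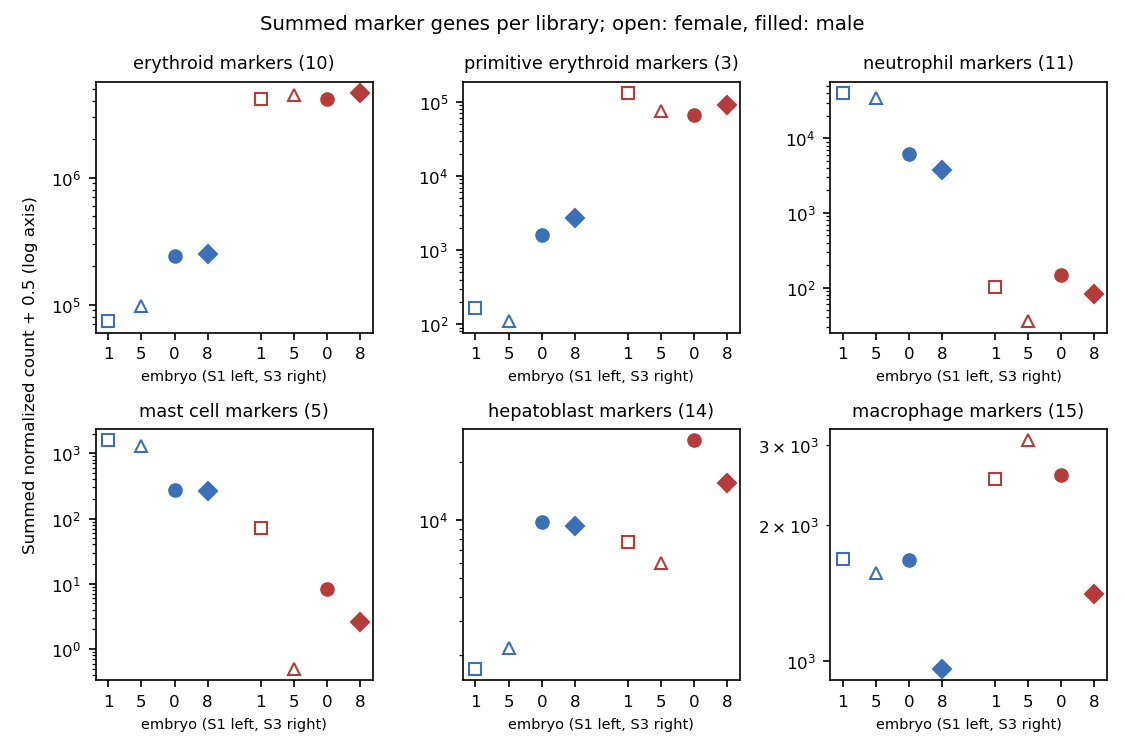
Summed normalized counts (plus 0.5, log axis) of the marker genes of 6 cell types in each of the 8 libraries, S1 in blue and S3 in red, open symbols for the female embryos 1 and 5 and filled symbols for the male embryos 0 and 8. At S1 the male embryos lie above the female ones for erythroid, primitive erythroid and hepatoblast markers and below them for neutrophil and mast cell markers.

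Most of the genes tested differed between S1 and S3. With the embryo as a block, edgeR's quasi-likelihood test found 4280 of 13514 genes higher at S3 (31.7% of genes tested) and 4996 lower (37%) at an adjusted p under 0.05, the threshold of every call below. More than 2-fold changes made up 3056 of the higher calls (22.6% of genes tested) and 3771 of the lower calls (27.9%). In 9049 of the 9276 called genes all 4 embryos moved in the called direction. The S1 and S3 libraries did not overlap in 8143 genes, 60.3% of those tested. Over all genes the changes of 2 embryos correlated with a Pearson's r of 0.842 to 0.918 (6 pairs of embryos, across genes, which are not independent replicates). Protein-coding genes fell more often than they rose, 4589 against 3465 of 11167, while 384 of 863 long noncoding RNA genes rose and 197 fell. Changes of more than 3 on the log2 scale were found in 812 rises and 998 falls. In what follows ± beside a log2 fold change is the standard error of the edgeR fit over 4 embryos, and where the values of both stages are listed the S1 and S3 libraries did not overlap unless stated.

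The balance of rises and falls depends on the scaling, and the S3 libraries held far more of their counts in few genes. The 10 most abundant genes held 4.05, 4.45, 4.54 and 3.52% of the counts at S1 and 18, 19.6, 19.6 and 19.3% at S3. The top 100 genes went from 18.3% ± 1.23 at S1 to 40.5% ± 1.16 at S3 (SD, n = 4). The genes needed to reach 50% of the counts numbered 753, 735, 722 and 889 at S1 and 236, 225, 211 and 190 at S3. At S1 the list was led by housekeeping genes, *Actb*, *Hspa8* and *Eif5a*, each with a mean share of 0.439% to 0.525%. At S3 it was led by *Hbb-bs* with 3.93% and *Hba-a1* with 3.9%, followed by *Hbb-bt*, the peroxidase gene *Gpx1* and the carbonic anhydrase gene *Car2*. Each of these share differences had the same direction in 4 of 4 embryos, and an exact paired permutation test (two-sided) gave p = 0.13 for every one, which is also the adjusted value over the shares and the smallest p that 4 pairs allow. Adult globins went from 0.63% ± 0.458 at S1 to 11% ± 0.409 at S3 (SD, n = 4), haem enzymes from 0.548% ± 0.132 at S1 to 3.74% ± 0.194 at S3 (SD, n = 4) and cytosolic ribosomal proteins from 4.8% ± 1.04 at S1 to 2.22% ± 0.37 at S3 (SD, n = 4). With TMM the median gene changed by −0.11 on the log2 scale. When libraries were scaled by their totals alone, this median moved by −1.02 to −1.13 and 18.1% of the calls were higher in place of 46.1%, and with upper-quartile scaling it moved by 0.31 to 0.21 and 56.9% were higher. Changes below are TMM values, and where a named group or gene turns its direction with another scaling this is stated.

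**Figure D2:**
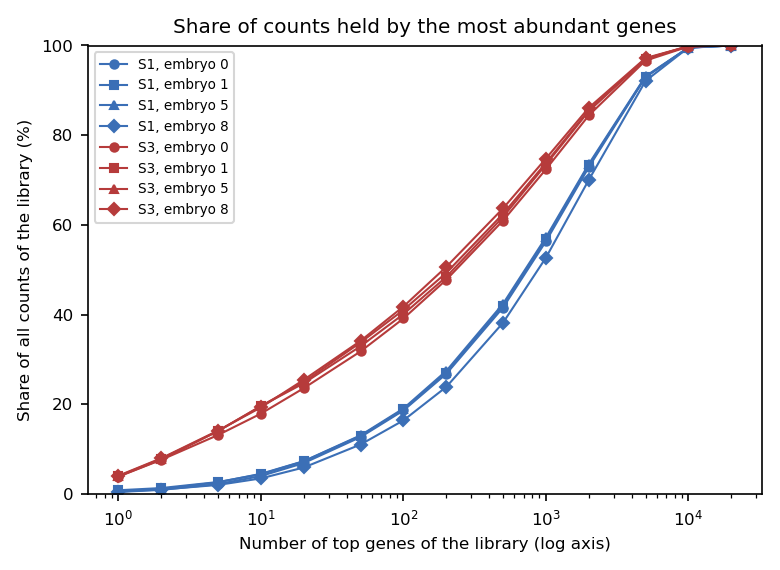
Share of all counts of a library (%) held by its most abundant genes, against the number of genes (log axis), S1 in blue and S3 in red with 1 line per library. The 10 top genes held 3.52% to 4.54% of the counts in the 4 S1 libraries and 18% to 19.6% in the 4 S3 libraries.

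All 8 tested genes of the adult and embryonic globin lists rose. The median log2 change of the 4 adult ones was 5.69 and that of the 4 embryonic ones 6.66 on the log2 scale. By sex, the median of the adult genes was 6.76 in female and 4.61 in male embryos and that of the embryonic genes 9.31 in female and 4.59 in male embryos. *Hbb-bs*, an adult β-globin, had 74207, 12019, 19628 and 66644 normalized counts at S1 and 1608478, 1655066, 1735147 and 1805012 at S3. *Hba-a1*, an adult α-globin, had 102469, 19757, 30871 and 99692 at S1 and 1541345, 1714158, 1795753 and 1710706 at S3. The S3 libraries lay close together, while the 2 male S1 libraries held several times the globin RNA of the female ones. The log2 fold change of *Hbb-bs* was 5.69 ± 0.50 (edgeR adjusted p = 9.39e-06) and that of *Hba-a1* was 5.07 ± 0.48 (edgeR adjusted p = 1.42e-05), with *Hba-a2* at 5.69 ± 0.48 and *Hbb-bt* at 5.93 ± 0.53. The change of *Hbb-bs* was 6.79 in female and 4.60 in male embryos. Embryonic globins are made by primitive erythroid cells of the yolk sac, with low expression in early definitive cells. *Hbb-bh1* had 597, 118, 72.1 and 698 normalized counts at S1 and 43054, 55928, 43884 and 59495 at S3, a log2 fold change of 7.62 ± 0.63 (edgeR adjusted p = 6.25e-06). *Hbb-y* had 863, 31.7, 28.9 and 1660.4 at S1 and 20692, 64847, 25564 and 26431 at S3, and *Hba-x* 148, 13.3, 8.35 and 385 at S1 and 3614, 11877, 5203 and 5256 at S3. These 2 were highest in the S3 library of embryo 1, which had among the lowest values at S1, and their part in the primitive and the definitive lineage was not tested. As a share of all counts the embryonic globins stayed small, between 0.164% and 0.311% at S3. The near-identical copies *Hba-a1* and *Hba-a2*, like *Hbb-bs* and *Hbb-bt*, are uncertain as single genes, since reads that map to both copies were not counted.

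Of the 9 enzymes of haem synthesis, 8 rose and 1 fell. The first step, aminolevulinate synthase, exists as 2 isoenzymes, the erythroid *Alas2* and the ubiquitous *Alas1*, and they moved in opposite directions. *Alas2* went from 4161, 642, 996 and 7099 normalized counts at S1 to 356061, 282194, 329097 and 396702 at S3, a log2 fold change of 7.34 ± 0.58 (edgeR adjusted p = 4.98e-06). *Alas1* went from 614, 1611, 1462 and 591 at S1 to 109, 57, 119.9 and 80.6 at S3 and fell by 3.43 ± 0.36 on the log2 scale (edgeR adjusted p = 2.67e-05). At S1 *Alas1* was higher in embryos 1 and 5, whose libraries held more neutrophil marker RNA, and the part of those cells in its fall was not tested. Per kilobase of transcript, *Alas2* RNA was 1.02 to 30.9 times that of *Alas1* at S1, where the female embryos had the low values, and 7053 to 12729.9 times at S3. The later enzymes named here had smaller changes. *Urod*, the uroporphyrinogen decarboxylase, had 11761, 8141, 9236 and 9121 at S1 and 111906, 117256, 127416 and 121677 at S3 (log2 fold change 3.66 ± 0.17), *Ppox* changed by 3.95 ± 0.20 and *Fech*, which inserts iron into haem, by 4.65 ± 0.24. All 9 calls held within the female and within the male embryos alone.

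Genes that move haem, its precursors and iron changed in both directions. Of 14 tested genes of porphyrin and haem transport and breakdown, 11 rose and 2 fell. *Slc25a39*, a mitochondrial carrier for glutathione, had 5630.5, 5298, 5149.9 and 6136 at S1 and 81759, 81867, 96289 and 92937 at S3 (log2 fold change 3.99 ± 0.15), and the porphyrin exporter *Abcg2* rose by 3.75 ± 0.20. The haem exporter *Flvcr1* went from 831, 489, 771 and 1315 to 126, 119, 92 and 91.2 and fell by 2.90 ± 0.29 on the log2 scale (edgeR adjusted p = 1.87e-05). The exporter thus moved against most genes of its list in all 4 embryos. *Hmox1*, the inducible haem oxygenase, changed by 4.36 in female and 1.75 in male embryos, one of the genes whose change differed by sex. In the iron list, 24 genes, 11 rose and 5 fell, beside 31.7% higher and 37% lower over all genes tested. Mitoferrin 1 (*Slc25a37*), which brings iron into erythroid mitochondria, went from 2271, 549, 661 and 3469 to 90819.6, 62772, 75314 and 112102 (log2 fold change 6.0 ± 0.38), while mitoferrin 2 (*Slc25a28*) stayed between 199 and 288 in all 8 libraries (−0.24 ± 0.19, adjusted p = 0.286 in edgeR), with overlapping stages. The ferritin receptor for autophagy *Ncoa4* rose by 4.42 ± 0.16 and ferritin light chain *Ftl1* by 3.21 ± 0.18. The zinc and iron importer *Slc39a14* fell, from 121, 84.2, 125 and 185 to 29.1, 9.72, 10.9 and 4.24. Its counts were low at both stages, and every S3 library lay below every S1 library. *Tfrc*, which encodes the sorting antigen CD71, had 11508, 11903, 10581 and 22638 at S1 and 76131, 47691, 53832 and 84082 at S3, a log2 fold change of 2.24 ± 0.18 (edgeR adjusted p = 4.55e-06). *Tfr2* changed by 0.47 ± 0.17 with overlapping stages, did not pass without embryo 0, 1 or 5, and was lower at S3 with totals. With totals the iron list had 9 higher and 13 lower.

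Of the 15 genes of the membrane skeleton 13 rose and none fell, and of 22 surface proteins and channels 17 rose and 2 fell. The anion exchanger band 3 (*Slc4a1*) had 4224, 186, 659 and 12062 at S1, lowest in embryo 1 and highest in embryo 8, and 270318, 123491, 211703 and 305104 at S3. Its log2 fold change was 7.08 ± 0.83 (edgeR adjusted p = 5.73e-05) and was 8.84 in female and 5.33 in male embryos. *Mpp1*, a scaffold of the skeleton, went from 1938, 1467, 1559 and 2488 to 35273, 31119, 32459 and 41420.4 (log2 fold change 4.26 ± 0.15), and *Epb41*, protein 4.1, changed by 4.0 ± 0.19. The complement regulator *Cd59a* rose by 4.62 ± 0.17 and the Kell antigen gene *Kel* by 4.21 ± 0.21. Against this direction *Itgb1*, the β1 integrin that binds fibronectin, went from 6717, 6437, 7061 and 11419.6 to 3386, 3370.1, 3401 and 2966 and fell by 1.23 ± 0.18 on the log2 scale (edgeR adjusted p = 2.83e-04). The 2 skeleton genes that did not pass were *Add3* (−0.32 ± 0.22) and *Tpm3* (−0.13 ± 0.12), whose libraries overlapped between stages.

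The promoters of 3 of these genes are shown because the genes stand for haem synthesis, the membrane and globin, and the stretch before each start holds a recognition motif of the GATA factors. The 250 bases before an annotated start were read from GRCm39, the same assembly as the mm39 build of the files, at chrX:149330121-149330370 on the plus strand for *Alas2*, chr11:102256107-102256356 on the minus strand for *Slc4a1* and chr7:103477170-103477419 on the minus strand for *Hbb-bs*. The start is that of the gene's canonical transcript in the GENCODE annotation, and for *Slc4a1* and *Hbb-bs* other annotated transcripts begin further upstream, so that these windows lie inside the span of the gene. Capitals mark matches, on either strand, to AGATAA (bound by GATA factors), CCACACCC (the CACCC box bound by Klf1) and CCAAT.
Alas2: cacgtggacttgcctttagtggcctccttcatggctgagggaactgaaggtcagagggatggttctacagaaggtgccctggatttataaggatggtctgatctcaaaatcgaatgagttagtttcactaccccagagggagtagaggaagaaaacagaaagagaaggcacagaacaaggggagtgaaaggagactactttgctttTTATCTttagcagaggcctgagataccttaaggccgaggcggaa
Slc4a1: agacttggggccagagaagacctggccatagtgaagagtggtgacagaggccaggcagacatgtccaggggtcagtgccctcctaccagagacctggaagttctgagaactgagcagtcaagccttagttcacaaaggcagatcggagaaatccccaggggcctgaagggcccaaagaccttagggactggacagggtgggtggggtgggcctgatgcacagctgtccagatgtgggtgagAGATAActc
Hbb-bs: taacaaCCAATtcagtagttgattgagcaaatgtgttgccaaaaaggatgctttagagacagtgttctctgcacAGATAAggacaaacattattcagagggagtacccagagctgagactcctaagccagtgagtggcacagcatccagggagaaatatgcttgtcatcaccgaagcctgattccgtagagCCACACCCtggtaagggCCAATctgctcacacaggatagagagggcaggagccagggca
The GATA match began 44 bases before the start in *Alas2*, 9 in *Slc4a1* and 176 in *Hbb-bs*, whose CACCC box began 59 bases before it. Shares were then taken, in this order, over the 250 bases before 21627 protein-coding genes, 11167 tested genes, 2322 genes more than 2-fold higher at S3 and 3409 more than 2-fold lower, counting matches on both strands and each motif by itself. AGATAA was found in 9.64%, 7.42%, 8.57% and 7.51%, and CCACACCC in 3.57%, 3.15%, 2.89% and 3.64%. CCAAT was found in 36.5%, 37%, 41.1% and 32.9%. The E2F motif TTCCCGCC was found in 2.33%, 3.32%, 3.62% and 2.64%, the ETS motif CCGGAAG in 6.87%, 10.9%, 8.31% and 9.56% and the E-box CACGTG in 6.29%, 7.98%, 7.41% and 8.13%. TATAAA was found in 11.9%, 7.18%, 8.66% and 6.92%. These are counts of letters in 1 window and no measure of binding.

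Among 23 transcription factors of erythropoiesis 16 rose and 4 fell. *Gata1*, the main activator of erythroid genes, had 10838, 8896, 9642 and 9967 at S1 and 23859.8, 26677, 29014 and 25748 at S3 (log2 fold change 1.42 ± 0.14), and *Klf1* 17791, 12616, 15449.6 and 13776 and 60467, 64056, 78071 and 69447 (2.20 ± 0.16). Both factors were abundant already at S1 and were higher at S3 in each embryo. Larger rises were seen for *Nfe2*, which went from 3583, 3177, 3269 and 3441 to 57422, 49325, 56462 and 67187 (4.09 ± 0.15), for the E2F partner *Tfdp2* (3.68 ± 0.16), for *Foxo3* (3.85 ± 0.17) and for *E2f2*, an E2F factor with known functions in erythroblasts, which went from 728, 174, 356 and 1571 to 23518, 14700.1, 19564 and 26622 (5.31 ± 0.37). *Nfia* fell from 22.6, 19.2, 22 and 27.4 to 0, 1.39, 2.42 and 0, low values at both stages. The progenitor list moved the other way, with 20 of 24 tested genes lower and 1 higher. *Kit*, the receptor for stem cell factor, went from 2312, 1694, 2631 and 3903 to 19.8, 6.95, 2.42 and 2.12 and fell by 8.26 ± 0.45 on the log2 scale (edgeR adjusted p = 6.78e-07). *Myb* went from 2219, 2926, 2632 and 3130.2 to 64.8, 58.3, 48.4 and 44.6 and fell by 5.63 ± 0.21 on the log2 scale (edgeR adjusted p = 2.36e-07). *Myc* went from 8368, 9663, 10258 and 8425 to 828, 889, 733 and 454 (−3.69 ± 0.18) and *Gata2* from 143, 180.1, 233 and 163 to 15.9, 9.72, 2.42 and 0 (−4.67 ± 0.59). No S3 library reached an S1 library for these 4 genes. The exception was *Lyl1*, a relative of Tal1, which rose from 184, 348, 217 and 114 to 843, 589, 1066 and 1150.1 (2.15 ± 0.36). Some members of this list, such as *Flt3* (47.1, 148, 94.9 and 28.8 at S1), are also expressed by the myeloid precursors whose markers were highest in the S1 libraries of embryos 1 and 5, and their part in these falls was not tested.

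**Figure D3:**
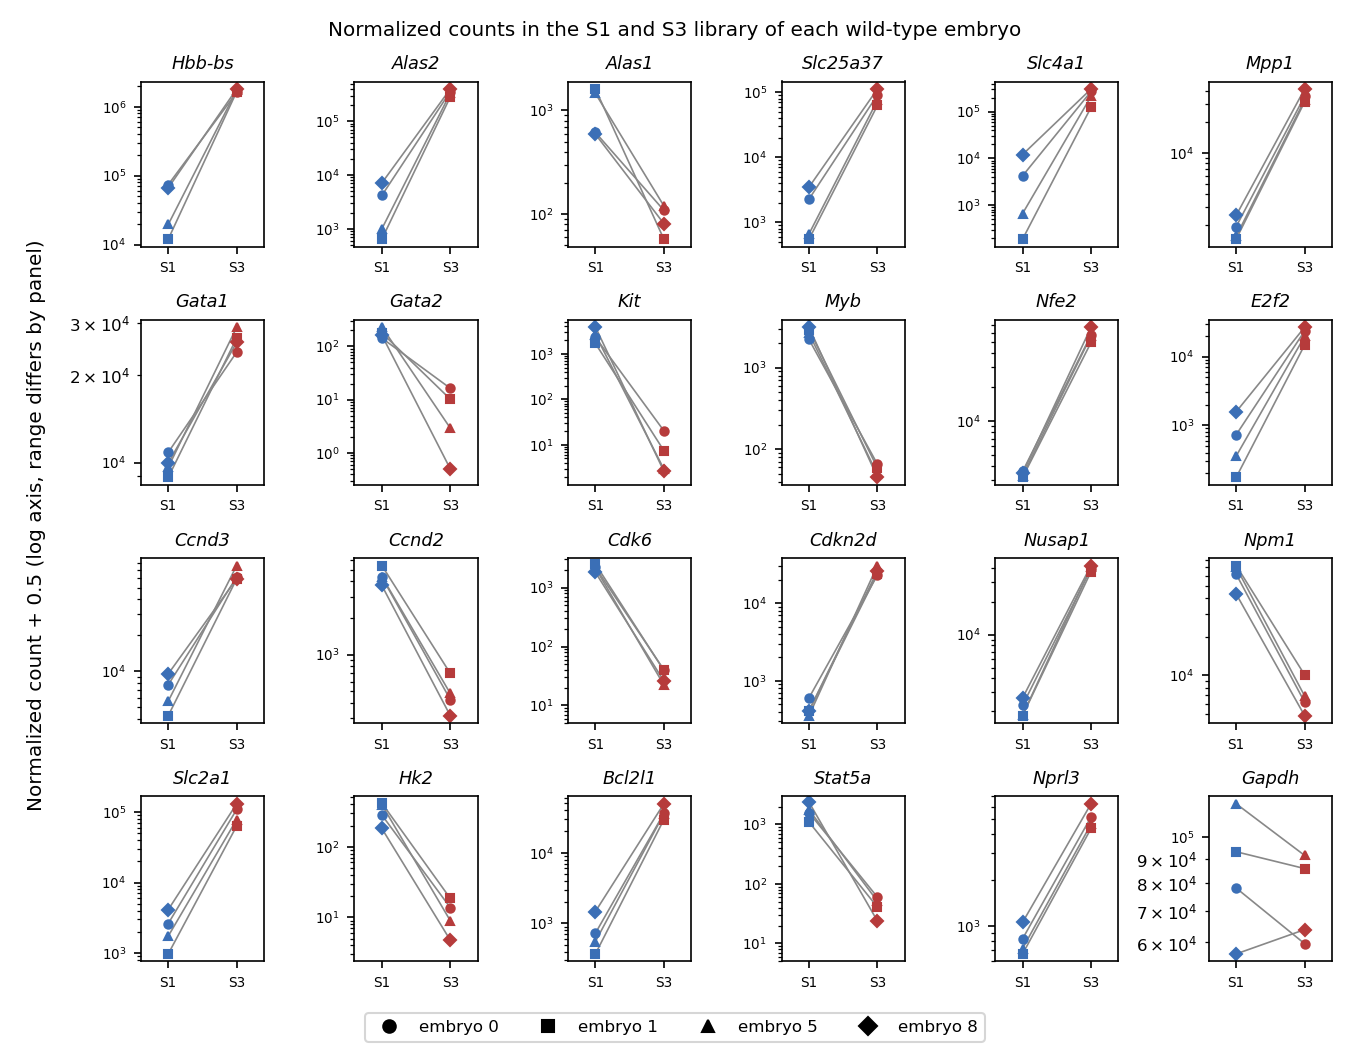
Normalized counts plus 0.5 (log axis, each panel with its own range) of 24 genes in the S1 (blue) and S3 (red) library of each wild-type embryo, joined by a line per embryo. Each gene but *Gapdh*, whose libraries overlap between stages, shows 4 lines in 1 direction, and the S1 points of *Slc4a1*, *Alas2* and *E2f2* spread most.

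Genes of cell division rose. All 32 tested genes of mitosis and cytokinesis were higher at S3, with a median log2 fold change of 1.99 against −0.11 over all genes, and 26 stayed higher when scaled by totals, with 1 lower. *Nusap1*, a spindle protein, went from 2264, 1823, 1839 and 2644 to 39904, 37477, 41347 and 42566, a log2 fold change of 4.25 ± 0.16 (edgeR adjusted p = 2.36e-07). *Ube2c*, the E2 enzyme of the anaphase-promoting complex, went from 9374, 7965, 8226 and 5929 to 102679, 118820.3, 128155 and 118322 (3.91 ± 0.19). Both genes rose in each of the 4 embryos. *Mki67*, the Ki-67 proliferation antigen, went from 2342, 3480.0, 1424 and 3188 to 26341, 19320.4, 20042 and 25366 (3.19 ± 0.23). Of 43 DNA replication genes 27 rose and 1 fell, with smaller changes (median 0.63) that turned with totals, to 5 higher and 18 lower, and with 15 rises in the male and 32 in the female embryos alone. *Rrm2*, a subunit of ribonucleotide reductase, rose by 2.32 ± 0.19 and *Gins4* by 1.52 ± 0.14, while the phosphatase gene *Cdc25a* fell by 0.76 on the log2 scale.

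Regulators of the G1 phase moved in both directions. Of 22 cyclin D, kinase, inhibitor, pocket protein and E2F genes 14 rose and 5 fell. *Cdk6* went from 2202, 2508, 2137 and 1813 to 39.7, 38.9, 21.8 and 25.5 and fell by 6.12 ± 0.21 on the log2 scale (edgeR adjusted p = 2.36e-07), and its relative *Cdk4* from 17984, 17922, 18808 and 15359.9 to 4355, 6368, 5238 and 3121 (−1.92 ± 0.16). *Ccnd2*, cyclin D2, went from 4340.0, 5396, 4379 and 3701 to 426, 700.1, 478 and 314 (−3.26 ± 0.16) while cyclin D3, *Ccnd3*, went from 7711, 4254, 5621 and 9499.6 to 61086, 59132, 76325 and 59207 (3.30 ± 0.23). The 2 D cyclins thus moved in opposite directions. Per kilobase of transcript, *Ccnd3* was 0.845 to 2.75 times *Ccnd2* at S1 and 90.6 to 202 times at S3. Both kinase inhibitors named here rose. *Cdkn2d*, p19INK4d, went from 601, 406, 354 and 410.1 to 23206, 24252, 30872 and 26304, a log2 fold change of 5.90 ± 0.23 (edgeR adjusted p = 2.45e-07), and p27KIP1, *Cdkn1b*, from 24.5, 77.5, 24.3 and 26.1 to 418, 299, 325 and 452 (3.44 ± 0.39).

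Genes of ribosome assembly fell. Of 43 ribosome biogenesis genes 41 fell, 1 rose and 1 did not pass, with a median of −2.01, and 39 of the falls exceeded 2-fold. The counts were 41 lower and 1 higher in the female and in the male embryos alone. *Npm1*, nucleophosmin, went from 61497, 71840.0, 69663 and 43112 to 6189, 10085, 6911 and 4851 and fell by 3.16 ± 0.16 on the log2 scale (edgeR adjusted p = 4.52e-07). *Ddx21*, a nucleolar helicase, went from 4597, 5164, 4483 and 6571 to 715, 792, 615 and 683 (−2.88 ± 0.15). *Sbds*, which acts at the last step of the large subunit's assembly, was the exception (0.72 ± 0.13), and with totals it was at −0.26 and did not pass. Few genes of the ribosomal proteins themselves passed. Of 85 tested cytosolic ribosomal protein genes 62 did not pass, 4 rose and 19 fell (median −0.20), and the falls varied from 7 to 24 when 1 embryo was left out, with 7 without embryo 5 and 9 without embryo 0. The counts of this list moved with scaling, to 0 higher and 83 lower with totals, and its direction turned to 11 higher and 6 lower with the upper quartile. *Rplp0* changed by 0.30 ± 0.15, *Rpl41* by 0.82 ± 0.18 and *Rpl13a* by −1.30 ± 0.18. Mitochondrial ribosomal proteins fell in 41 of 74 genes and rose in 6, beside 37% lower and 31.7% higher over all genes tested. The falls were led by *Mrps6* (−3.11 ± 0.17) and *Mrps27* (−2.66 ± 0.15). Over the fits of part of the embryos there were 27 to 43 falls and 2 to 7 rises.

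Most genes that make the building blocks of RNA and DNA fell. Of 18 genes of purine and pyrimidine synthesis 15 fell and none rose (median −1.93), the same numbers in each sex. *Impdh1*, of guanine nucleotide synthesis, went from 498, 484, 639 and 583 to 56.9, 40.3, 44.8 and 38.2 (−3.60 ± 0.23) and *Dhodh*, the mitochondrial step of pyrimidine synthesis, from 2572, 2848, 2656 and 2135 to 275, 556, 358 and 227 (−2.92 ± 0.19). Both genes fell in each embryo. *Paics* did not pass (0.17 ± 0.14). In serine and one-carbon metabolism 10 of 15 genes fell and 2 rose. The folate carrier *Slc19a1* went from 4785, 4170.3, 4861 and 5236 to 209, 349, 253 and 117 and fell by 4.42 ± 0.29 on the log2 scale (edgeR adjusted p = 1.55e-06), *Mtap* changed by −3.68 ± 0.18 and *Phgdh*, which starts serine synthesis, by −1.71 ± 0.13. Of 28 sterol and fatty acid genes 12 fell and 5 rose, beside 37% lower and 31.7% higher over all genes tested, or 11 higher and 9 lower with the upper quartile. *Fasn*, fatty acid synthase, went from 1049, 2326, 901 and 1627 to 109, 73.6, 63 and 59.4 (−4.19 ± 0.30), and *Fdft1*, squalene synthase, from 1411, 1013, 1203 and 1262 to 5169, 4501, 5485 and 5228 (2.07 ± 0.13).

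Of 54 tested initiation factor genes 11 rose and 21 fell, beside 31.7% higher and 37% lower over all genes tested, so that no direction is read from the list. There were 15 higher and 12 lower with the upper quartile and 6 higher and 13 lower in the male embryos alone. *Eif2ak1*, the haem-regulated kinase of eIF2α, went from 3721, 2548, 3101 and 6810.3 to 51601, 40022, 45307 and 60113, a log2 fold change of 3.70 ± 0.18 (edgeR adjusted p = 4.82e-07), and *Eif1a* from 8293, 9549, 9416 and 8139 to 1145, 1643, 1153 and 963 (−2.88 ± 0.15). In the integrated stress response, which this kinase feeds, 8 of 13 genes rose and 1 fell (with totals, 6 higher and 5 lower). *Ppp1r15a*, the phosphatase subunit that reverses eIF2α phosphorylation, went from 2077, 926, 1131 and 3032 to 62766, 50545, 63218 and 77262 (5.29 ± 0.25). The amino acid sensing kinase *Eif2ak4* fell, from 291, 285, 333 and 577 to 148, 113, 119.9 and 95.5 (−1.57 ± 0.28).

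Of 31 genes of glucose uptake, glycolysis and the pentose phosphate pathway 11 rose and 13 fell, shares near the 31.7% and 37% of all genes tested, and the counts are given as a description only. *Slc2a1*, the main glucose transporter, went from 2617, 969, 1736 and 4124 to 109462, 63797, 78657 and 131748, a log2 fold change of 5.48 ± 0.22 (edgeR adjusted p = 2.73e-07). *Bpgm*, which makes the 2,3-bisphosphoglycerate that sets haemoglobin's oxygen affinity, went from 1528, 1008, 1125 and 1951 to 64585, 70351, 66633 and 78828 (5.69 ± 0.20). *Slc2a4*, a transporter known from muscle and fat, went from 74.5, 2.21, 18.2 and 103 to 3616, 2649, 3367 and 4195 (6.56 ± 0.59). These 3 genes rose in every embryo, and *Slc2a4* had few counts in the S1 library of embryo 1. *Hk2* went from 282, 416, 395 and 181 to 13.2, 18.1, 8.48 and 4.24 and fell by 4.86 ± 0.31 on the log2 scale (edgeR adjusted p = 1.53e-06), whereas *Hk1* changed by 0.52 ± 0.15, with overlapping stages, and was lower with totals. *Pkm* went from 11998, 17979.7, 22099.8 and 13241 to 1992, 2127, 3472 and 2103 (−2.75 ± 0.14) and the erythroid and liver enzyme *Pklr* from 3298, 1620.4, 2593 and 4296 to 8843, 7717, 7735 and 8388 (1.55 ± 0.20). *Gapdh* did not pass (−0.18 ± 0.15). Of 80 nuclear genes of the respiratory chain 48 rose and 5 fell (median 0.68), which turned to 4 higher and 37 lower with totals. *Ndufb11* changed by 1.62 ± 0.15, *Cox6a1* by 1.49 ± 0.19 and *Atp5mc2* by −1.59 ± 0.15. *Cox6a2*, an isoform of heart and muscle, fell from 31.1, 115, 64.5 and 6.02 to 2.65, 0, 0 and 0. Of 12 proteins encoded in the mitochondrial genome 7 rose and none fell (1 higher and 6 lower with totals, and 3 to 5 higher with an embryo left out, 3 without embryo 5), led by *mt-Co1*, which went from 17642, 18639, 13415 and 11303 to 49126, 55394, 61019 and 45664 (1.81 ± 0.17).

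Autophagy genes mostly rose, and those of the lysosome did not. Of 36 genes of autophagy and mitophagy 26 rose and 7 fell (median 2.01). *Bnip3l*, the mitophagy receptor Nix that removes mitochondria from reticulocytes, went from 6483, 6508, 5646 and 5646 to 60177, 62904, 62755 and 70440.2, a log2 fold change of 3.40 ± 0.15 (edgeR adjusted p = 3.27e-07). The protease *Atg4a*, which processes Atg8 proteins, rose by 3.52 ± 0.13 and its substrate *Gabarapl2* by 3.57 ± 0.15, while *Atg10* fell from 237, 325, 299 and 169 to 50.3, 58.3, 50.9 and 38.2 (−2.36 ± 0.23). Of 25 lysosomal genes 14 fell and 5 rose, beside 37% lower and 31.7% higher over all genes tested. *Glb1*, β-galactosidase, changed by −2.77 ± 0.19, and cathepsin B (*Ctsb*) went from 10841, 6573, 7518 and 14343 to 142469, 142761, 166646 and 181185 (4.07 ± 0.21), against most genes of its list. In the list of the CTLH ubiquitin ligase and of E2 enzymes of terminal erythroid cells, 9 of 14 genes rose and 1 fell. *Ube2h* went from 546, 267, 392 and 1109 to 19689, 14222, 15266 and 28097 (5.21 ± 0.21), *Ube2l6* from 3427, 1782, 2092 and 4024 to 134826, 153403, 173119 and 161219 (5.85 ± 0.28) and *Ypel5* from 646, 342, 397 and 783 to 34012, 32949, 32740.2 and 40396, a log2 fold change of 6.09 ± 0.22 (edgeR adjusted p = 2.36e-07). All 3 rose in every embryo, from low counts at S1 for *Ube2h* and *Ypel5*. *Rmnd5b* fell (−0.84 ± 0.16). Proteasome genes rose in 23 of 42 cases and fell in 7 (15 and 3 in the male embryos alone, and with totals 3 higher and 27 lower), with *Psme3* at 1.66 ± 0.14 and the immunoproteasome subunit *Psmb10* going from 2747, 3982, 3304 and 1326 to 206, 290.3, 308 and 163 (−3.50 ± 0.18).

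Genes of enucleation and nuclear condensation gave 14 rises and 5 falls among 25 (with totals, 10 higher and 12 lower). *Rbm38*, an RNA-binding protein of terminal erythropoiesis, went from 280.0, 186, 304 and 252 to 3045, 2266, 3548 and 3624 (3.61 ± 0.15), *Ypel4* from 148, 22.1, 37.2 and 271 to 12898, 9414, 10071 and 16307 (7.14 ± 0.48), and the acetyltransferase gene *Kat2a* from 1089.7, 921, 1086 and 1860.5 to 106, 80.6, 43.6 and 63.7 (−4.05 ± 0.29). Each of the 3 genes moved 1 way in all embryos. *Banf1* did not pass (−0.26 ± 0.16). Of the writers and erasers of DNA methylation and the Polycomb genes 6 rose and 6 fell among 14, not far from the shares of all genes tested (with totals, 2 higher and 10 lower). *Dnmt3b* went from 879, 763, 1045 and 1163 to 42.3, 15.3, 13.3 and 6.37 (−5.65 ± 0.41) and *Tet1* from 32.1, 66.4, 41 and 24.1 to 1.32, 0, 0 and 0, against a rise of *Rbbp4* by 2.11 ± 0.14. Among linker, variant and high-mobility group proteins, 6 of 14 rose and 4 fell, again not far from those shares (with totals, 2 higher and 10 lower). *H3f3a*, histone H3.3, went from 28299, 23910.0, 28574 and 21271 to 225519, 246615, 240962 and 241599 (3.24 ± 0.17), and *Hmga1* from 13026, 10847, 13638 and 11305 to 922, 1086, 729 and 586 (−3.91 ± 0.19).

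In the erythropoietin pathway the receptor gene rose while most genes tested fell. *Epor* went from 6989, 4359, 5497 and 6892 to 18249, 16149, 18793 and 20046 (1.65 ± 0.14). Of 17 genes 5 rose and 10 fell, beside 31.7% higher and 37% lower over all genes tested. *Stat5a* went from 1575, 1098, 1758 and 2365 to 59.5, 40.3, 50.9 and 23.3 and fell by 5.21 ± 0.31 on the log2 scale (edgeR adjusted p = 1.00e-06), *Stat5b* from 1943, 1601, 1920.1 and 2878 to 729, 522, 659.9 and 526 (−1.75 ± 0.19), and the phosphatase *Ptpn6* from 1573, 2190.3, 2126 and 1406 to 138, 138, 203 and 99.7 (−3.67 ± 0.18). In each embryo *Stat5a* fell more than *Stat5b*. The kinase gene *Pim1* and the inhibitor gene *Socs3*, known targets of STAT5, rose. *Pim1* went from 369, 200.1, 266 and 448 to 6935, 6266, 6742 and 7892 (4.50 ± 0.19) and *Socs3* from 27.3, 9.6, 19.7 and 60.9 to 1385, 772, 1296 and 1634 (5.60 ± 0.29). The anti-apoptotic *Bcl2l1*, Bcl-xL, went from 728, 371, 555 and 1475 to 35943, 29415, 35411 and 49233, a log2 fold change of 5.75 ± 0.24 (edgeR adjusted p = 2.77e-07). Of the 21 apoptosis genes of its list 5 rose and 10 fell (7 and 7 with the upper quartile), beside the same 31.7% and 37%, and no direction is read from the list. Genes of defence against peroxide rose in 16 of 24 cases and fell in 2 (with totals, 11 higher and 9 lower). *Gpx1*, glutathione peroxidase, went from 68280.1, 60928, 56994 and 43449 to 740057, 849012, 960383 and 864586 (3.91 ± 0.21), *Srxn1* changed by 4.09 ± 0.16 and *Cat*, catalase, by 3.34 ± 0.14, against *Prdx6* at −1.34 ± 0.14. Interferon-stimulated genes rose in 9 of 15 cases and fell in 2. Their summed level was 2367, 3702, 3902 and 2069 at S1 and 9971, 8247, 19221 and 7199.8 at S3. The macrophage markers, of which 10 of 13 tested were higher at S3, summed to 1670.4, 1683, 1561 and 962 at S1 and 2578, 2521, 3066 and 1403 at S3. Both sums rank the embryos alike at S3 but not at S1, and the part of macrophage RNA was not tested. *Isg15* went from 20.7, 31, 34.2 and 8.7 to 659, 742, 1988 and 632 (5.36 ± 0.30), highest in the S3 library of embryo 5, and *Bst2* from 597, 979, 965 and 282 to 102, 91.7, 115 and 19.1 (−3.15 ± 0.24).

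The counts of *Nprl3*, whose promoter the study deletes elsewhere in the line, were higher at S3. This gene encodes a subunit of the GATOR1 complex, which restrains mTORC1 when amino acids are short. Its counts went from 830.5, 662, 717 and 1062 to 5138, 4329, 4618 and 6266, a log2 fold change of 2.65 ± 0.13 (edgeR adjusted p = 4.34e-07). Its partner *Nprl2* went from 801, 822, 853 and 684 to 556, 665, 526 and 429 (−0.55 ± 0.16), a fall that did not pass without embryo 5 or with the upper quartile. Counts of *Nprl3* also hold transcripts that start at the α-globin enhancers in its introns, and *Mpg* overlaps it on the other strand, so that both genes are uncertain where strand was not used. Across 38 tested genes of the GATOR, Rag and mTORC1 system 12 rose, 10 fell and 16 did not pass, beside 31.7% higher and 37% lower over all genes tested (with totals, 5 higher and 27 lower, and 6 lower without embryo 5). *Sesn1*, a sestrin that acts on GATOR2, went from 912, 796, 984 and 1403 to 5691, 4023, 5036 and 6173 (2.37 ± 0.14) and *Rragb* from 157, 202, 179 and 132 to 25.1, 9.72, 7.27 and 2.12 (−4.01 ± 0.46), while *Lamtor5*, the most abundant member per kilobase, changed by 0.25 ± 0.15 and was lower with totals.

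**Figure D4:**
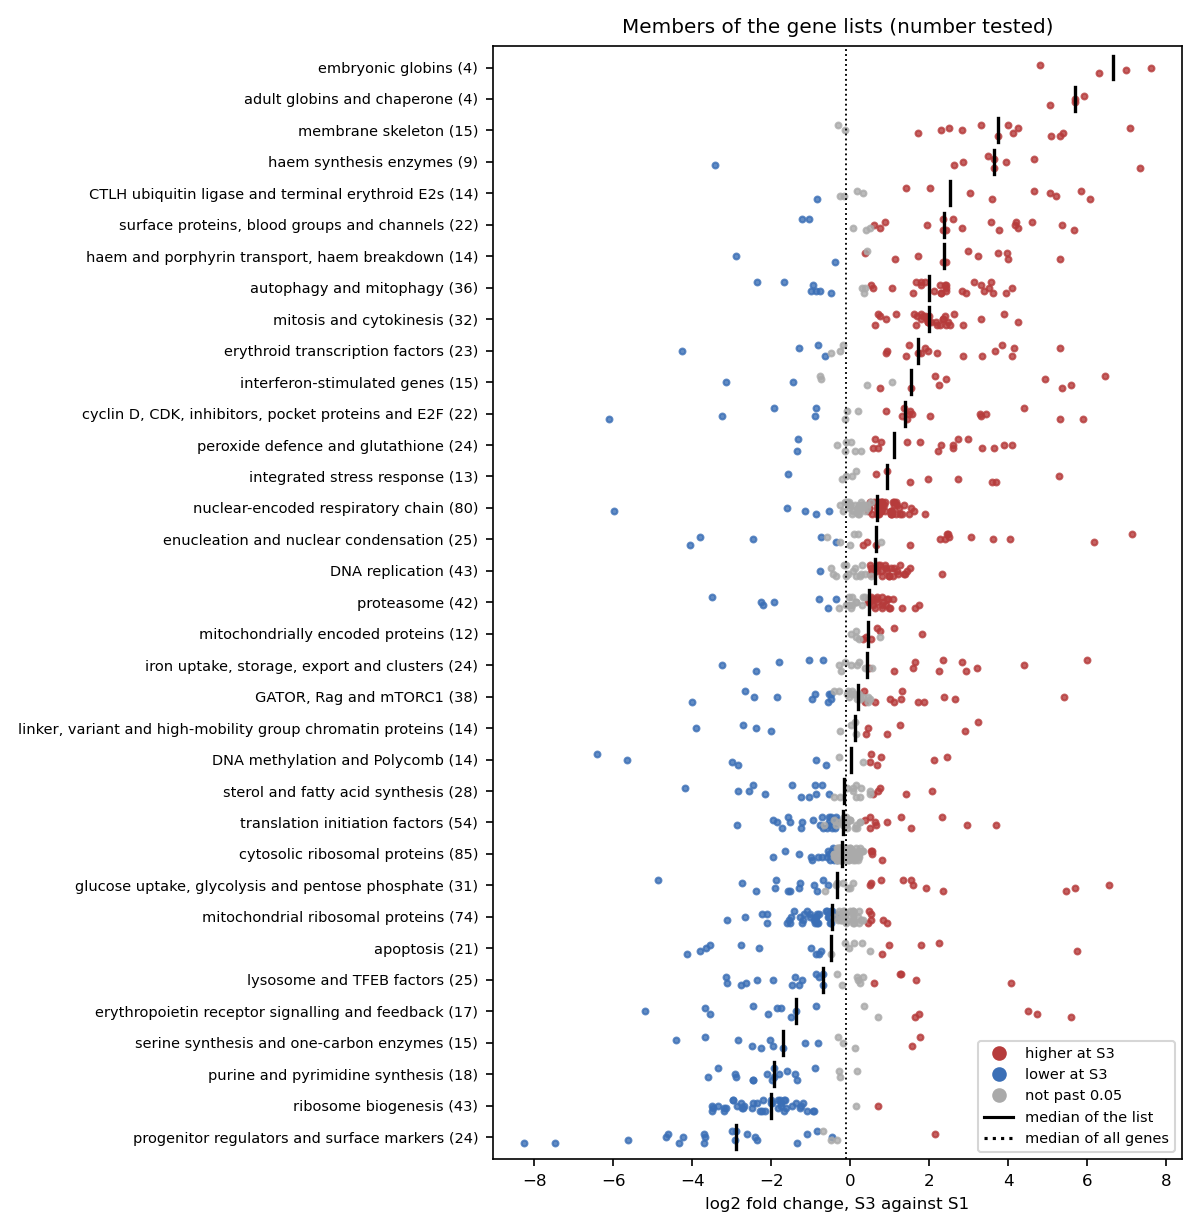
log2 fold changes of S3 against S1 for the tested members of 35 gene lists (number tested in brackets), with genes called higher in red, lower in blue and neither in grey, the list median as a black bar and the median of all genes as a dotted line. Mitosis, membrane skeleton and autophagy genes lie mostly to the right, ribosome biogenesis, nucleotide synthesis and progenitor genes to the left.

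Pairs of genes with related products, mostly paralogues, were compared within each embryo. Of 33 pairs 32 could be tested, and in 29 the difference between the 2 genes' log2 changes had the same sign in all 4 embryos. In 10 pairs, those named next, 1 gene was called higher and the other lower. The difference was 10.79 ± 2.40 for *Alas2* over *Alas1* (mean ± SD, n = 4), 6.91 ± 2.40 for *Gata1* over *Gata2* and 6.56 ± 0.27 for the MYC antagonist *Mxi1* over *Myc*. It was 6.56 ± 0.35 for the D cyclins, 6.46 ± 1.41 for the erythroid β-spectrin *Sptb* over *Sptbn1*, 5.41 ± 0.43 for the hexokinases and 4.30 ± 0.73 for the pyruvate kinases. The GATOR1 partners differed by 3.20 ± 0.15, the B-type lamins *Lmnb2* and *Lmnb1* by −2.91 ± 0.65, and the splicing factors *Mbnl1* and *Mbnl2* by −1.38 ± 0.23. *Hk1* and *Lmnb1* were lower at S3 with totals, and *Mbnl2* was at −0.041 there and did not pass. The stages overlapped for *Hk1*, *Lmnb1* and *Mbnl1*, which did not pass without embryo 5, and neither did *Lmnb1* and *Mbnl1* without embryo 1. A factor that scales a whole library cancels in the difference within a pair.

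Other pairs differed in the size of their log2 changes and not in called direction. The change of *Slc2a1* exceeded that of *Slc2a3* by 5.53 ± 0.16 (mean ± SD, n = 4), that of *Slc25a37* exceeded *Slc25a28* by 6.24 ± 0.89, and that of *Ranbp10* exceeded its CTLH relative *Ranbp9* by 4.34 ± 0.29. The change of *Prdx2*, the erythroid peroxiredoxin, exceeded that of *Prdx1* by 3.77 ± 0.24. For *Bnip3l* over *Bnip3* the difference in change was 3.03 ± 0.35, for *Ezh1* over *Ezh2* 1.93 ± 0.44 and for *Stat5a* over *Stat5b* −3.54 ± 0.46. Per kilobase, *Ezh1* RNA stayed below that of *Ezh2*, at 0.0532 to 0.105 times it at S1 and 0.178 to 0.354 times at S3. For *Slc2a3*, *Slc25a28*, *Ranbp9*, *Prdx1* and *Bnip3* the change itself did not pass. The 3 pairs without a common sign were *Map1lc3b* against *Map1lc3a* and the 2 pairs of an adult and an embryonic globin, where 1 embryo went against the others.

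**Figure D5:**
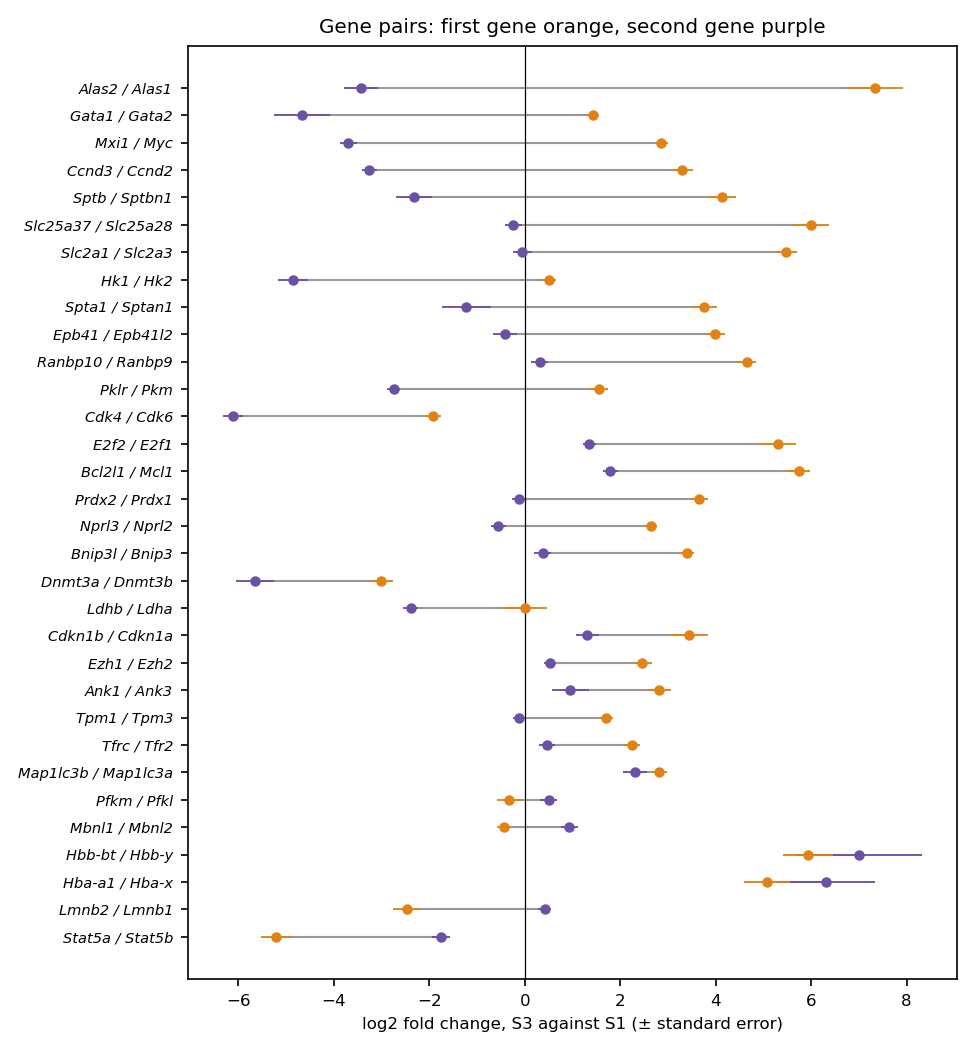
log2 fold changes of S3 against S1 (± standard error of the fit) for the 32 tested pairs, the first gene of each pair in orange and the second in purple, ordered by the mean difference within embryos. The longest bar joins *Alas2* with *Alas1*, and 10 bars cross 0 with both ends called.

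By size alone, the largest rises among protein-coding genes that moved 1 way in all embryos were those of *Or51ai2*, *Artn*, *Hbb-bh1*, *Hsd3b6*, *Alas2*, *Apol11b*, *Slfn14*, *Fn3k*, *Tmcc2* and *Ypel4*, between 7.14 and 8.38 on the log2 scale. Of these, *Hbb-bh1*, *Alas2*, *Apol11b*, *Fn3k*, *Tmcc2* and *Ypel4* rose more in the female embryos by the interaction of sex and stage, as with *Apol11b* at 9.25 in female and 6.09 in male embryos. *Or51ai2*, an olfactory receptor gene, had 1.89, 0.738, 0 and 0 at S1 and 209, 265, 199.8 and 259 at S3, and *Artn*, the neurotrophic factor artemin, 2.83, 0.738, 0.759 and 7.36 and 536, 486, 493 and 777. *Tmcc2* was abundant, with 2926, 489, 915 and 7884 at S1 and 262135, 201639, 226431 and 346896 at S3. The largest falls were those of *Ear6*, *Prss57*, *Stfa1*, *Elane*, *Ms4a3*, *Prg2*, *Epx*, *Prg3*, *Ctsg* and *Atp8b4*. Most of these are granule or precursor genes of neutrophils and eosinophils. *Elane*, neutrophil elastase, had 589, 4594, 3957 and 223 at S1 and 2.65, 5.56, 4.84 and 0 at S3, and *Mpo*, myeloperoxidase, 4146, 28426, 22833 and 3079 and 129.7, 82, 9.69 and 59.4. *Ear6* and *Prss57* had no count in any S3 library, which with a floor of 3 counts over the group is at least 224-fold and 189-fold lower than the S1 mean. These falls run with the neutrophil marker sums given above, and whether any of them occurred in erythroid cells was not tested.

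Long noncoding RNAs with the largest rises were *Gm36431*, *Gm38619*, *Scarletltr*, *Gm33497* and *4930455G09Rik*. *Scarletltr*, an erythroid noncoding RNA, had 1.89, 2.95, 2.28 and 2.01 at S1 and 379.8, 339, 469 and 479.6 at S3 (log2 fold change 7.43 ± 0.31). *Gm38619* had 34.9, 6.64, 7.59 and 89 and 4384, 4344, 4357 and 5133. The largest falls were those of *Gm15915*, *2010204K13Rik*, *Snhg4*, *Dancr* and *1700097N02Rik*. *Snhg4*, 1 of 2 loci of that name, went from 3313, 3103, 3194 and 2939 to 250.1, 565, 345 and 180.4 and *Dancr* from 716, 847, 648 and 448 to 54.3, 124, 111 and 42.4. *Gm15915* had 2646, 4779, 4189 and 0.669 at S1 and 58.2, 5.56, 49.6 and 0 at S3, so that embryo 8 almost lacked it at both stages and the stages overlapped.

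Whether the change from S1 to S3 differed between the sexes was tested as an interaction with the embryo as a block. Of 13514 genes 35 differed (0.259%), 29 that rose less in male embryos and 6 that fell less in them. The 5 with the smallest p were *Hbb-y*, *Hba-x*, *Hbb-bh1*, *Ackr1* and *Hba-a1*. The change of *Hbb-y* was 10.42 in female and 4.29 in male embryos, a difference of −6.13 (male minus female, edgeR adjusted p = 3.94e-04), and that of *Ackr1*, the Duffy antigen, was 7.57 in female and 5.04 in male embryos (edgeR adjusted p = 0.016). The list also held *Slc4a1*, *Slc25a37* and *Hmox1* among the genes that rose less in males, and among the 6 that fell less the granulocyte gene *Mpo*, the haptoglobin gene *Hp* and the progenitor antigen gene *Cd34*. In all 35 genes the male and female S1 libraries did not overlap, and in 34 the sexes differed more at S1 than at S3. The interaction favours genes whose sexes differ at S1 or at S3, and the same shares over all genes were not counted. Nothing is therefore read from these 2 counts. One of the 35 lies on the X chromosome, *Alas2*, and none on the Y. Leaving out an embryo leaves 1 of its sex, which is then assumed to vary like the others. Without embryo 0 no gene passed in edgeR (1766 at an unadjusted p under 0.05), without embryo 1 there were 30, without embryo 5 there were 140 and without embryo 8 there were 106. Without the embryo as a block 9 differences (male minus female) were negative and 1 was positive, and DESeq2 called 74 negative and 26 positive differences. Compared within a stage, 331 of 13930 genes (2.38%) differed between male and female embryos at S1 and 1721 of 11974 (14.4%) at S3, where the hepatoblast sums also differed, from 6017 to 7717 in female and 15567 to 25862 in male embryos. With 2 embryos a sex, these comparisons and the make-up of the libraries cannot be told apart.

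Against the other genotypes of the line, the targeted gene was examined first. *Nprl3* had 37.8, 30.2, 32 and 49.4 CPM (counts scaled to the library total) in the wild-type S1 libraries, 16.8 and 16.7 in Het (embryos 3 and 4) and 0.416 and 0.988 in KO (embryos 2 and 9). At S3 it had 125, 102, 101 and 143 in wild type, 101 and 88.4 in Het and 80.9 and 89.9 in KO, in which the promoter is deleted and transcripts from the enhancers in its introns are still counted. In a fit of all 16 libraries the change from S1 to S3 differed between KO and wild type in 1 of 13402 genes (0.00746%), *Nprl3* itself, by 5.13 (standard error 0.26, edgeR adjusted p = 1.17e-05). Without embryo 1 or without embryo 8 there were 2 such genes. Between Het and wild type none of 13402 passed in edgeR (0%), with 434 at an unadjusted p under 0.05. With 2 Het and 2 KO embryos these counts do not show that the other genes changed alike.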

How the data were processed

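RNA was sequenced from S1 and S3 cells sorted from E13.5 foetal livers, and the RNA of these small numbers of cells was amplified before sequencing. The values used are whole-number read-pair counts per gene as deposited by the authors. Reads were aligned with STAR 2.7.9 to mm39 and counted with featureCounts 1.6.4 per the submitters' processing notes, without strand. Of 55416 genes, 54749 received a symbol from the GENCODE annotation and 667 did not, and *Ahsp* could not be matched. Columns of 4 further libraries were not used. Amplified reads without molecular identifiers are not independent molecules.

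Counts were TMM-scaled, genes with a mean normalized count over the 8 wild-type libraries above 10 were kept, and S3 was compared with S1 by edgeR 4.0.16 (glmQLFit and glmQLFTest, R 4.3.3) with the embryo as a block and Benjamini-Hochberg adjustment at 0.05. The study used DESeq2 with a formula that is not given in the sources used here. DESeq2 1.42.0 with and without the embryo, other scalings, other filters, a test against a 2-fold change, all 16 libraries and each embryo left out were tried as alternatives. Fits of 1 sex alone, male against female embryos within a stage, and the sex and genotype comparisons with embryos left out were added after the data were seen. Both libraries of an embryo come from the same animal, and over 13514 genes their deviations from the stage means correlated by 0.076, 0.194, 0.285 and 0.269 for embryos 0, 1, 5 and 8. The fits were tested on simulated data. Gene lists, pairs, motifs and members were chosen with earlier results of these data known. Genes were named by rule, as the 10 largest rises and falls among protein-coding genes and the 5 largest among long noncoding RNAs (mean count of at least 100, same direction in all 4 embryos), up to 4 members a list (the 2 smallest p, the highest count per kilobase and the largest change against the majority), both genes of each pair and the 5 smallest p of each interaction, together with *Kit*, *Myb*, *Tfrc*, *Nprl3* and *Mki67*. Other genes given with values were chosen after their values were seen. Some genes are not reported here.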

Additional observations from a re-analysis of the deposited data

Results flagged for a closer look

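Among 368 groups of 4 libraries, formed by the printed genes at each stage and the shares of counts, 23 held a library that lay far from the other 3 by Dixon's test, where chance flags about 1 in 20 groups. The number flagged is near that rate, and the groups share libraries and are not independent. The flags are listed as a description, and no trait of an embryo is read from them. Embryo 8 was that library most often. At S1 it had the high value of *Tfrc* (22638), *Itgb1* (11419.6), *Ncoa4* (3602) and *Eif2ak4* (577) and the low value of *Cox6a1* (6698), and its cytosolic ribosomal proteins held 3.25% and its top 100 genes 16.5% of the counts, both the lowest at S1. At S3 it had the high value of *Gm36431* (261), *Gm38619* (5133) and *Ypel5* (40396) and the low value of *Itgb1* (2966).

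Embryo 1 stood apart with the high value of *Cdkn1b* (77.5) and of *Sptbn1* (498) at S1, and with *Hbb-y* (64847) and *1700097N02Rik* (59.7) at S3. Embryo 5 had the high S3 value of *Ccnd3* (76325), *Isg15* (1988) and *Pkm* (3472), and embryo 0 the high S1 value of *Prdx2* (46916). The rest were genes close to 0 at S3, where 1 library had a few counts, namely *Cox6a2* (2.65), *Epx* (1.32) and *Tet1* (1.32) in embryo 0 and *Flt3* (1.39) in embryo 1.

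The change from S1 to S3 differed between male and female embryos by edgeR's test of the interaction. The difference, male minus female on the log2 scale, was −6.13 for *Hbb-y*, −5.40 for *Hba-x*, −2.77 for *Hbb-bh1*, −2.53 for *Ackr1* and −2.14 for *Hba-a1*. These are genes that the S1 libraries of the male embryos already held at a higher level, and sex and the make-up of those libraries cannot be told apart. The change of *Nprl3* differed between KO and wild-type embryos by 5.13, with 0.416 and 0.988 CPM in the 2 KO libraries at S1.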

How the results depend on the processing

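The stage comparison was refitted with other scalings, filters, tools, tests and sets of libraries. Scaling by totals alone gave 1933 genes higher and 8756 lower, with 1423 and 7149 of them past 2-fold, while the other alternatives stayed within 1.5 times the reported counts. Leaving out 1 embryo gave 3561 to 4270 higher and 4323 to 4839 lower genes. Without the replicate block there were 3971 higher and 4807 lower, with 2907 and 3757 past 2-fold, and the block changed the call of *Hk1*, *Lmnb1* and *Tfr2* only among the genes given with values (with DESeq2, also *Mbnl1*). The sex by stage comparison gave 1 positive and 9 negative genes without the replicate block and 26 and 74 in DESeq2, and with 1 embryo left out 0 to 56 positive and 0 to 84 negative. KO by stage gave 1 gene in all fits but those without embryo 1 or 8, where there were 2 (range 1 to 2), and 1 without the replicate block. Het by stage gave 0 in every edgeR fit, with 226 to 719 genes at an unadjusted p under 0.05.

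With totals alone these genes changed direction to a log2 fold change of −0.60 for *Bnip3*, −0.45 for *Ezh2*, −0.46 for *Hk1*, −0.73 for *Lamtor5*, −0.56 for *Lmnb1*, −0.041 for *Mbnl2*, −0.81 for *Paics*, −0.66 for *Ranbp9*, −0.16 for *Rpl41*, −0.68 for *Rplp0*, −0.26 for *Sbds* and −0.51 for *Tfr2*. The values of *Mbnl2*, *Rpl41* and *Sbds* did not pass in that fit. The cause of the turns was not tested, but the construction moves all genes by −1.02 at the median.

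What limits these data is their number of embryos, 4 in all and 2 of each sex, and the uneven make-up of the S1 libraries. The exact permutation test used for shares of counts cannot pass 0.05 with 4 pairs. Levels per cell are not measured, so a fall relative to other RNA can go with an unchanged amount per cell. Genes near 0 at one stage have folds that depend on the prior count of the fit.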

Other observations

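Beyond the gene lists, other classes of annotated genes were counted. Of 783 processed pseudogenes 179 rose and 111 fell, of 320 transcripts awaiting experimental support 122 rose and 25 fell, and of 27 small nucleolar RNA genes 7 rose and 11 fell, beside 31.7% higher and 37% lower over all genes tested. Pseudogenes share sequence with their parent genes and are uncertain. Genes at 1 CPM or more numbered 11546, 11662, 11520.0 and 11463 at S1 and 10140.0, 9776, 9771 and 9644 at S3, a lower number in 4 of 4 embryos. Of the markers of other liver cells 12 of 13 tested hepatoblast markers were higher at S3 (with totals, 4 higher and 0 lower) and 10 of 13 macrophage markers (with totals, 4 higher and 3 lower), while 3 of 8 megakaryocyte markers were lower and 2 higher (with totals, 1 higher and 6 lower), near the shares over all genes.

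The olfactory receptor gene *Or51ai2* lies near the β-globin cluster on chromosome 7, and its neighbourhood was examined after its rise was seen. Within 250 kb of the cluster 33 olfactory receptor genes are annotated, 19 of them without a count in the 8 libraries and 13 with more counts at S3 than at S1. Their summed raw counts were 8 over the 4 S1 libraries and 872 over the 4 S3 libraries, most of them from *Or51ai2*, the only one that passed the filter on low counts. Among all 1053 olfactory receptor genes counted, 4 passed this filter and 3 were called higher, *Or51ai2* and 2 outside this window. The filter also lets through genes that are high at S3 alone, and nothing is read from this count.

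The 812 genes that rose by more than 3 on the log2 scale were used to place each library, as the mean log2 level over these genes relative to the S1 mean. The S1 libraries were at 0.24, −0.48, −0.29 and 0.57 and the S3 libraries at 4.11, 3.84, 4.04 and 4.27 in embryos 0, 1, 5 and 8. For the 998 genes that fell by more than 3 the S1 libraries were at −0.12, 0.25, 0.19 and −0.29 and the S3 libraries at −3.61, −3.88, −3.95 and −4.63. These genes were chosen by the same contrast in the same libraries, so that the values are a description only. The falling genes include granulocyte genes such as *Elane* and *Mpo*, which were highest in the S1 libraries of embryos 1 and 5. The S3 library of embryo 8 had the lowest total count of the wild-type libraries. The part of either in the order of the embryos was not tested. Embryo 8 lay furthest in the direction of S3 on both measures at each stage, and embryo 1 the least far at S1.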
